A study of Mus musculus with 12 samples.

Results

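The liver makes most of the proteins of blood clotting and of the complement system, and the mRNAs of 43 such genes were followed in mouse liver over the day. The genes were chosen by name, as coagulation factors, fibrinogen chains, anticoagulants, proteins of fibrinolysis, complement components and complement inhibitors. Of the 43, 42 had a row in the table of mRNA signal, which held 20069 genes. *C1ra* had no row under that symbol and was not analysed here. A gene counted as expressed if at least 1 sample was above 8 reads per base pair of exon (rpbp), which 41 of the 42 and 10198 of all genes met. The exception was *A2m* (alpha-2-macroglobulin), at 1.00 and 0.680 rpbp at ZT2 and at most 0.08 rpbp elsewhere. Each of the 41 genes was above the minimum in every sample, the lowest value being 20.5 rpbp for *Cfp*.

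The samples were 12 livers or liver pools of male wild-type C57BL/6 mice of 3 to 6 months, kept in 12 hr of light and 12 hr of darkness. Lights came on at ZT0 and went off at ZT12, and livers were taken every 4 hr from ZT2 to ZT22 in 2 series of 6 times. Poly(A) RNA was sequenced, and each time had 1 sample from each series (n = 2). The p-values measure the spread between these samples. Signal per base allows levels to be compared between genes.

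Clotting proceeds as a cascade of proteases. The contact factors and the tissue factor pathway both lead to factor X, factor X with factor V makes thrombin from prothrombin, and thrombin turns fibrinogen into fibrin. Serpins and protein C hold this back, and plasmin dissolves the clot. Complement is a second protease cascade in blood, started by antibody-bound C1, by lectins or by the alternative pathway, that cleaves C3 and ends in the membrane attack complex of C5b to C9. Hepatocytes make most of these proteins, and the acute-phase response to inflammation is known to raise some of them, fibrinogen and C3 among them.

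The summed signal over all genes was near equal between samples (1487469 to 1546116 rpbp). Scaling to a fixed number of sequences favours this, so the sum is no measure of total RNA. Acute-phase mRNAs separated 3 samples from the rest. Summed over 18 acute-phase genes that are not among the 43, such as *Saa1*, *Saa2*, *Orm1*, *Hp* and *Lcn2*, the signal was 75928 and 70312 rpbp at ZT2 and 46591 rpbp at ZT22 of series 2, against 10924 to 19169 rpbp in the 9 other samples. Of this list 17 were expressed, and 15 were higher at ZT2 than at the other times in limma (adjusted p below 0.05). Of all expressed genes, 9.96% were higher and 10.3% lower at ZT2. Kupffer cell mRNAs, of the resident liver macrophages, summed to 1003 and 1032 rpbp at ZT2, 798 rpbp at ZT22 of series 2 and 531 to 783 rpbp in the 9 others, and 7 of 9 expressed were higher at ZT2. Among hepatocyte mRNAs, 2 of 8 were higher and 3 were lower at ZT2, *Alb* (albumin) with a log2 difference of -1.05. Endothelial mRNAs gave 0 of 7 higher and 0 lower, stellate cell mRNAs 0 of 4 higher and 1 lower, and blood cell mRNAs 0 of 4 in either direction. In whole liver, fewer cells of a type and less RNA per cell cannot be told apart. The acute-phase level entered 1 fit below, a 24 hr cosine, and its part in the other results and that of the Kupffer cell level were not tested. The rhythm values are therefore given with and without the 3 samples.

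Many of the clotting and complement mRNAs were higher at ZT2. That time was tested because acute-phase mRNAs were already known to be high there in these samples. The ZT2 counts and p-values therefore describe these samples and are no independent support. In limma on log2(rpbp + 1), 21 of the 41 were higher at ZT2 than in the mean of the 5 other times (51.2%), against a background of 9.96% of all expressed genes, and 1 of 41 was lower, against 10.3%. The median log2 difference was 0.41 over the 41 genes and 0.044 over all expressed genes. Leaving out the series 2 sample of ZT22 gave 24 higher (background 10.4%) and 1 lower (background 11%). Without the series 1 sample of ZT2, 8 were higher (background 1.44%) and 0 lower (background 3.39%). Without that of series 2, 12 were higher (background 2.71%) and 0 lower (background 3.74%). By role, the 21 genes included all 3 fibrinogen chains, the 4 expressed genes of fibrinolysis and protease inhibition, and 5 of 6 terminal complement genes, but 0 of 5 procoagulant factors.

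**Figure D1:**
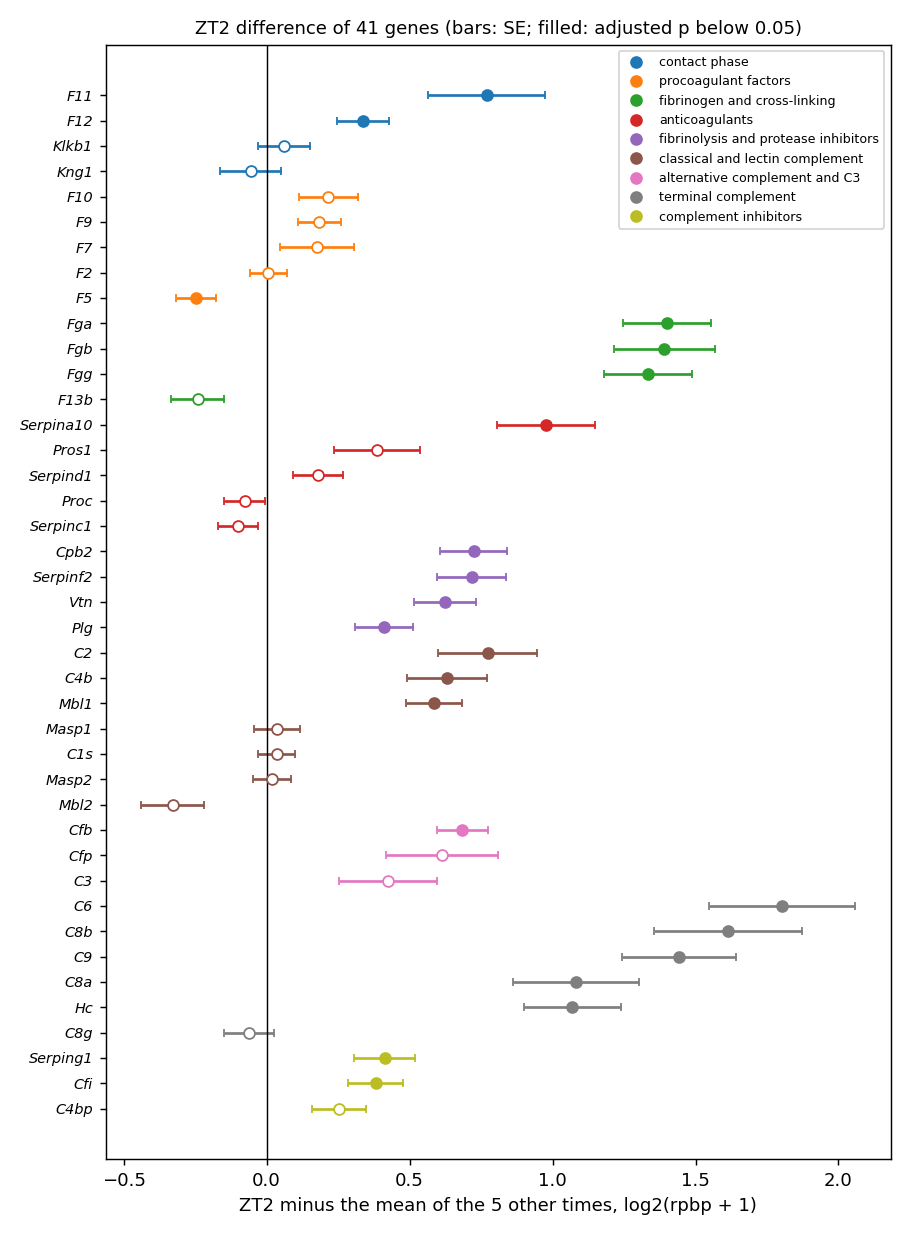
Difference between ZT2 and the mean of the 5 other times for each of the 41 expressed genes, on the log2(rpbp + 1) scale, grouped and coloured by role. Points are estimates, bars are standard errors, and filled points have an adjusted p below 0.05 in limma; 5 of 6 terminal complement genes and the fibrinogen chains lie farthest to the right, up to 1.80 for *C6*, and *F5* is the 1 filled point to the left of zero.

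A daily course was scored with F24, the share of the variance of the 12 values that lies in a 24 hr cosine, with a p-value from 10000 random orders of the values. With a permutation p below 0.05, F24 above 0.45 and a maximum above 1.5 times the minimum, 9 of 41 had a rhythm (22%), near the background of 19.2% of expressed genes. These were *F12*, *Fga*, *Fgb*, *Fgg*, *Serpinf2*, *Cpb2*, *Vtn*, *Mbl1* and *Mbl2*. With the permutation p adjusted over all expressed genes, 0 of 41 met the same limits (background 5.24%). In either series alone, with 6 samples, 0 (series 1, background 2.8%) and 2 (series 2, background 3.62%) met the limits. Without ZT2, 7 of 41 had a rhythm (background 15%), *Cfb* among them and *F12*, *Cpb2* and *Mbl2* not. Without ZT22 of series 2 the count was also 7 (background 16.9%), with *Vtn* and *Mbl2* lost. Without the ZT2 samples and ZT22 of series 2, 5 of 41 had a rhythm over the 9 samples left (background 12.6%). The lowest adjusted permutation p of the 41 over those 9 samples was 0.0669, for *Fga*. By F24 and permutation p alone, at any amplitude, the count was 13 of 41 with all samples (background 26.3%) and 9 of 41 without the 3 (background 19.7%). Of the 5 with a rhythm over the 9 samples, *Fga*, *Fgb*, *Fgg* and *Mbl1* also had a rhythm over all 12 samples and *C9* did not.

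The fibrinogen chains carried the most signal of the 41 and both patterns at once. Fibrinogen is a hexamer of 2 copies each of the Aα, Bβ and γ chains, encoded by *Fga*, *Fgb* and *Fgg*, which sit side by side on mouse chromosome 3 at chr3:82830075-82838036, chr3:82846169-82853725 and chr3:82811781-82818975 in mm9. The promoters of the 3 genes are shown because these mRNAs had like courses, with the window running from 250 bases before to 50 bases after the RefSeq start in GRCm38.p6. Capitals mark CTGGGAA, the core of the interleukin-6 response element, or TTCNNNGAA, the form bound by STAT factors, on either strand.
Fga, chr3:83025903-83026202, plus strand: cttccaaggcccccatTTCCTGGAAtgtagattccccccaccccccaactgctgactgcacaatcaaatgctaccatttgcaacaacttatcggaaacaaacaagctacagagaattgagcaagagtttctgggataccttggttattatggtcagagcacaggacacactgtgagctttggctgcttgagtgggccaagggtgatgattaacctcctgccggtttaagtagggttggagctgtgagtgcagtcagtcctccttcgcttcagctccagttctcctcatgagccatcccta
Fgb, chr3:83049814-83050113, minus strand: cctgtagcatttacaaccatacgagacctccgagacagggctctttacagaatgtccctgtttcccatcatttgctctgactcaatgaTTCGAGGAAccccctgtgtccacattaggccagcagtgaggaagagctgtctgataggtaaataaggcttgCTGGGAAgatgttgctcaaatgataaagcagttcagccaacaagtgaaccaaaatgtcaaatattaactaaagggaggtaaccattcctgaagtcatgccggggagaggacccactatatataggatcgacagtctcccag
Fgg, chr3:83007474-83007773, plus strand: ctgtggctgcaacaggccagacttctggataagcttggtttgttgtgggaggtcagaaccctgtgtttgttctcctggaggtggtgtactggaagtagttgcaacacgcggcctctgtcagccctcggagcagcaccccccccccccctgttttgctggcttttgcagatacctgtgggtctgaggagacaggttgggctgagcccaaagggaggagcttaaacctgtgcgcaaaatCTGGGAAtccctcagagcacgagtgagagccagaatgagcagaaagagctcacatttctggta
CTGGGAA was found in *Fgb* and *Fgg*, and TTCNNNGAA in *Fga* and *Fgb*. Over all 32851 promoters of this length, 11.1% held CTGGGAA and 8.3% held TTCNNNGAA on either strand. The motifs can overlap, as TTCNNNGAA can hold the whole of CTGGGAA. In *Masp2*, *F9* and *Vtn* a TTCNNNGAA match held a CTGGGAA match, so the counts of the motifs below are not separate. Among the 30 of 41 expressed genes with a promoter entry, 6 held CTGGGAA (20%) and 7 held TTCNNNGAA (23.3%). Of the 14 of these called higher at ZT2, 4 held CTGGGAA and 4 held TTCNNNGAA, against 2 and 3 of the 16 others. The letters TTNNGNAA, a form bound by C/EBP factors, were in 17 of 30 (56.7%, against 40.7% of all promoters), in 8 of the 14 and 9 of the 16. The HNF1 form was in 3 of 30, *C4bp*, *F13b* and *Hc*, against 0.399% of all promoters. A match of letters is not a binding site.

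*Fga* mRNA was at 13317 and 13269 rpbp at ZT2, next 4106 and 3960.4 at ZT6 and 3733 and 3632 at ZT10, and in the dark phase 4781 and 4651 at ZT14, then 5402 and 6077 at ZT18 and finally 6177 and 10548 at ZT22 (series 1 and 2). The ZT2 samples were above all others, the ZT6 and ZT10 samples were the lowest 4, and ZT22 of series 2 stood between. In each series the level was higher at each later time from ZT10 to ZT22. *Fgb* mRNA was at 14147 and 14625 rpbp at ZT2, next 4636 and 4654 at ZT6 and 4099 and 3952 at ZT10, and in the dark phase 5137 and 5189 at ZT14, then 5408 and 6484 at ZT18 and finally 6404 and 11724 at ZT22. *Fgg* mRNA was at 9215 and 9486 rpbp at ZT2, next 2928 and 2905 at ZT6 and 2888 and 2707 at ZT10, and in the dark phase 3538 and 3417 at ZT14, then 3855 and 4555 at ZT18 and finally 4582 and 7653 at ZT22. The 3 chains kept near the same proportions, with *Fgb* at 1.00 to 1.18 times *Fga* in the 12 samples. Together they made up 2.37% and 2.46% of the summed signal at ZT2, 1.98% at ZT22 of series 2, and 0.667% to 1.15% in the 9 others.

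**Figure D2:**
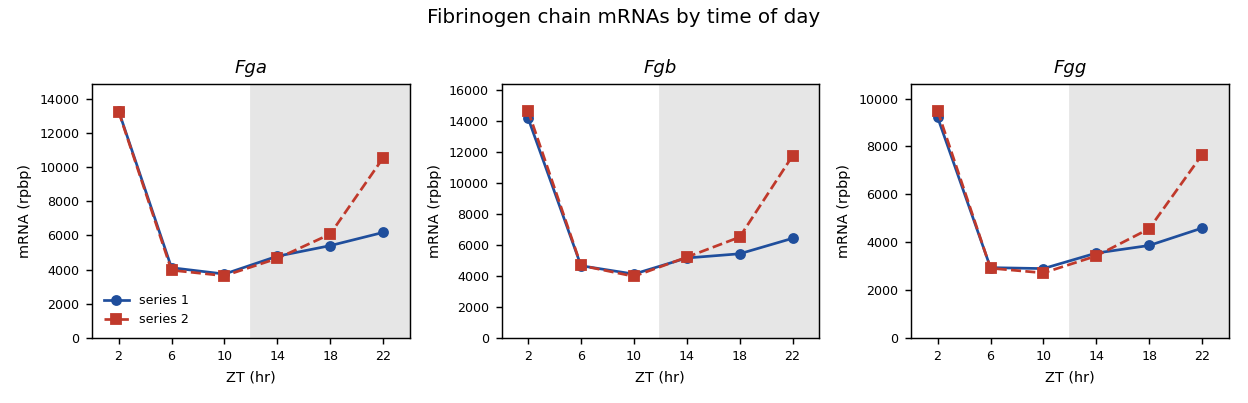
mRNA signal (rpbp) of *Fga*, *Fgb* and *Fgg* against ZT (hr), with series 1 as circles and solid lines, series 2 as squares and dashed lines, and the dark phase shaded. Each chain is highest in both ZT2 samples, and the series part at ZT22, where *Fga* is at 6177 rpbp in series 1 and 10548 rpbp in series 2.

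The ZT2 difference was 1.40 ± 0.16 (SE, adjusted p = 0.000517) for *Fga*, 1.39 ± 0.18 (SE, adjusted p = 0.000933) for *Fgb* and 1.33 ± 0.15 (SE, adjusted p = 0.000618) for *Fgg*, on the log2 scale. Over 12 samples F24 was 0.609, 0.602 and 0.61, with permutation p = 0.0067, 0.007 and 0.0088. F24 tends to be higher over fewer samples, also without a rhythm, so values over 9 and 12 samples are not like for like. Without the 3 acute-phase samples F24 was higher, at 0.962, 0.879 and 0.926, with permutation p = 0.0007, 0.0015 and 0.0009 over 9 samples. The maximum there was 1.70, 1.64 and 1.69 times the minimum, against 3.67, 3.70 and 3.50 with all samples. The fitted peak over the 9 samples lay at ZT20.9, ZT21.2 and ZT20.8, against ZT0.08, ZT0.24 and ZT23.99 over all 12. The 9 samples had 1 sample at ZT22 and none at ZT2, so few samples lie near that peak. The adjusted permutation p over 9 samples was 0.0669 for *Fga*, 0.0776 for *Fgb* and 0.068 for *Fgg*, above 0.05. In limma, a 24 hr cosine fitted beside the mean acute-phase level gave adjusted p = 0.00797, 0.0133 and 0.00759. With the F24 and amplitude limits, 4 of 41 passed that fit (the chains and *Mbl1*, background 5.57%) and 5 of 41 the cosine alone (the same 4 and *Serpinf2*, background 8.58%). With the ZT2 samples left out of the test altogether, the differences among ZT6 to ZT22 did not pass for any chain (adjusted p = 0.0575, 0.10 and 0.0581), and over ZT6 to ZT18 *Fga* was the 1 of 41 that did (adjusted p = 0.0476, background 3.28%).

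*F13b*, the carrier subunit of factor XIII, which cross-links fibrin, did not share this pattern. It was at 211 and 230.1 rpbp at ZT2 and from 234 to 299 rpbp (median 259) in the 10 other samples, and its ZT2 difference was -0.24 ± 0.092 (SE, adjusted p = 0.094).

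Among the contact-phase genes, *F12* and *F11* were higher at ZT2, and *Klkb1* and *Kng1* did not pass. Factor XII starts the contact pathway, plasma prekallikrein (*Klkb1*) and kininogen (*Kng1*) act with it, and factor XI carries it forward. *F12* mRNA was at 509 and 530.2 rpbp at ZT2 and from 342 to 473 rpbp (median 417) in the 10 others. *F11* mRNA was at 145 and 129.7 rpbp at ZT2 and from 47.7 to 136 rpbp (median 79.3), with 1 sample of ZT14 (series 2, 136 rpbp) between the ZT2 samples, so the groups overlapped. The ZT2 difference was 0.34 ± 0.091 (SE, adjusted p = 0.0287) for *F12* and 0.77 ± 0.20 (SE, adjusted p = 0.0273) for *F11*. *F12* did not pass with median-of-ratios scaling (adjusted p = 0.0501) or without ZT2 or ZT6 of either series. *F12* had F24 = 0.564 (permutation p = 0.0214) with all samples and 0.301 (permutation p = 0.352) without the 3 acute-phase samples. *Kng1*, the contact gene with the highest level, was at 1295 and 1226 rpbp at ZT2 and from 1153 to 1485 rpbp (median 1287) in the others, with no separation. *Klkb1* exons overlap *Cyp4v3* and reads of *Kng1* may be shared with its copy *Kng2*, so their levels are less certain.

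Prothrombin (*F2*), factor V, factor VII, factor IX and factor X had ZT2 differences of -0.25 to 0.22 on the log2 scale, and 1 of 5, *F5*, passed, as lower. *F5*, the cofactor of factor X, was at 232 and 259.6 rpbp at ZT2 and from 269 to 325 rpbp (median 287) in the 10 others. Both ZT2 samples were the lowest of the 12, and the difference was -0.25 ± 0.07 (SE, adjusted p = 0.0363). The call held in 5 of the 12 fits with 1 sample left out, and was lost without ZT2, ZT6 or ZT18 of either series or ZT14 of series 2. Both ZT14 samples were the highest for *F5*, at 319 and 325 rpbp. Its F24 over 12 samples was 0.669 (permutation p = 0.0046, adjusted p = 0.0601, peak at ZT15.0), with an amplitude of 1.40, under the limit. Without the 3 acute-phase samples F24 of *F5* was 0.566 (permutation p = 0.0929). *F5* exons overlap the gene model Gm16548, and strand was not used in counting. *F2* mRNA was at 1997 and 2006 rpbp at ZT2, next 1849 and 1992 at ZT6 and 1903 and 1889 at ZT10, and in the dark phase 2004 and 2041 at ZT14, then 2053 and 2108 at ZT18 and finally 2037 and 2079 at ZT22. It was lowest at ZT6 or ZT10 in each series and highest at ZT18. Its F24 of 0.765 was the highest of the 41 (permutation p = 0.0012, adjusted p = 0.0302), and *F2* was the 1 gene of 41 with an adjusted permutation p below 0.05 at any amplitude (background 6.15%). The course was shallow, with a maximum of 1.14 times the minimum. Without the 3 acute-phase samples F24 of *F2* was 0.748 (permutation p = 0.0197, adjusted p = 0.179), and the 24 hr cosine in limma over 12 samples gave adjusted p = 0.435. *F7*, *F9* and *F10* had ZT2 differences of 0.18 ± 0.13, 0.18 ± 0.074 and 0.22 ± 0.10 (SE), none past the threshold.

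**Figure D3:**
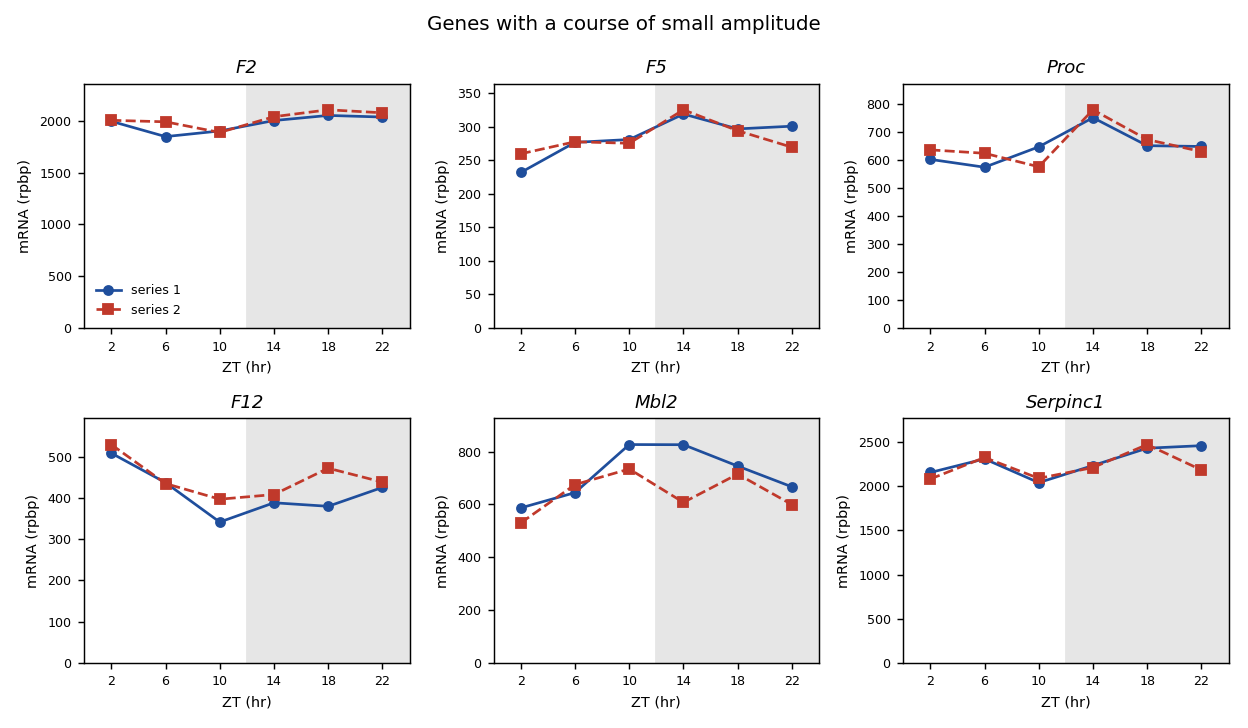
mRNA signal (rpbp) of *F2*, *F5*, *Proc*, *F12*, *Mbl2* and *Serpinc1* against ZT (hr), for series 1 (circles, solid lines) and series 2 (squares, dashed lines), with the dark phase shaded and each axis starting at 0. The courses are shallow, from 1.14 times between lowest and highest sample for *F2* to 1.56 times for *Mbl2*.

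Of the 5 anticoagulants, *Serpina10*, the inhibitor of factor X that works with protein Z, was higher at ZT2. It was at 651 and 579 rpbp at ZT2, 532 rpbp at ZT22 of series 2 and from 246 to 369 rpbp (median 288) in the 9 others. Its ZT2 difference was 0.98 ± 0.17 (SE, adjusted p = 0.00479). Antithrombin (*Serpinc1*), the most abundant of the group, was at 2158 and 2084 rpbp at ZT2 and from 2043 to 2475 rpbp (median 2274) in the 10 others, and its ZT2 difference was -0.10 ± 0.07 (SE, adjusted p = 0.334). Over the 9 samples without the acute-phase rise *Serpinc1* had F24 = 0.857 (permutation p = 0.005) with a peak at ZT22.6. With all 12, F24 of *Serpinc1* was 0.313 and the peak was at ZT19.5. Its maximum was 1.21 times its minimum, under the limit of 1.5. *Proc*, protein C, was at 750.2 and 778 rpbp at ZT14 and from 573 to 672 rpbp in the 10 other samples, so both ZT14 samples were the highest. Its F24 was 0.52 (permutation p = 0.0255) and its amplitude 1.36, and without the 3 acute-phase samples F24 was 0.553 (permutation p = 0.0945). *Pros1*, the cofactor of protein C, was at 83.5 and 84.1 rpbp at ZT2, 87.2 rpbp at ZT22 of series 2 and from 52.1 to 70.6 rpbp (median 62.7) in the others, with a ZT2 difference of 0.39 ± 0.15 (SE, adjusted p = 0.0994), and it passed with either ZT22 sample left out (adjusted p = 0.00715 without series 2). *Serpind1*, heparin cofactor II, had a ZT2 difference of 0.18 ± 0.087 (SE, adjusted p = 0.174).

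All 4 expressed genes of fibrinolysis and protease inhibition were higher at ZT2. Plasminogen (*Plg*) is the precursor of plasmin, alpha-2-antiplasmin (*Serpinf2*) inhibits plasmin, *Cpb2* encodes an inhibitor of fibrinolysis, and vitronectin (*Vtn*) binds the inhibitor PAI-1 and the terminal complement complex. *Plg* mRNA was at 1910.4 and 1958 rpbp at ZT2, 1855 rpbp at ZT22 of series 2 and from 1202 to 1631 rpbp (median 1416) in the 9 others. *Serpinf2* mRNA was at 1453 and 1293 rpbp, 1202 rpbp and from 573 to 981 rpbp (median 822) in the same order. For both, the 3 samples with high acute-phase mRNA were the highest 3. *Cpb2* mRNA was at 760.2 and 798 rpbp at ZT2, 704 rpbp at ZT22 of series 2 and from 424 to 492 rpbp (median 443) in the 9 others, whose range was narrow. *Vtn* mRNA was at 4536 and 4568 rpbp, 4225 rpbp and from 2337 to 3301 rpbp (median 2977). The ZT2 differences were 0.41 ± 0.10, 0.72 ± 0.12, 0.72 ± 0.12 and 0.62 ± 0.11 (SE), with adjusted p = 0.021, 0.00387, 0.00336 and 0.00457. With all 12 samples *Serpinf2*, *Cpb2* and *Vtn* had a rhythm (F24 = 0.658, 0.51 and 0.508). Without the 3 samples none of them met the limits. F24 of *Cpb2* was then 0.286 and its amplitude 1.16, whereas F24 of *Vtn* was 0.79 (permutation p = 0.0189) at an amplitude of 1.41.

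**Figure D4:**
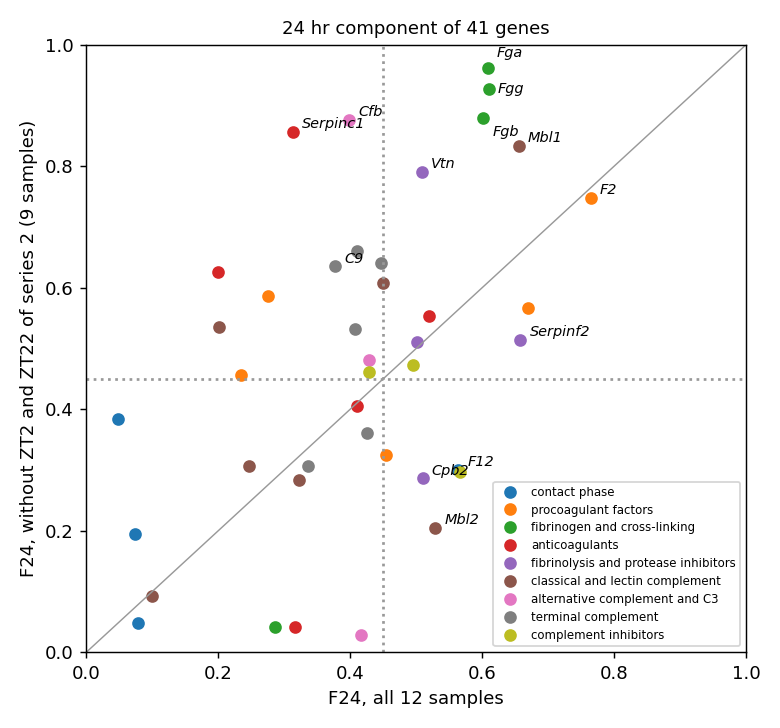
F24 of each of the 41 expressed genes over all 12 samples (horizontal) and over the 9 samples without ZT2 and ZT22 of series 2 (vertical), coloured by role, with dotted lines at the limit of 0.45 and a solid line of equality. The fibrinogen chains, *Mbl1*, *Cfb* and *Serpinc1* lie above the line and *F12*, *Cpb2* and *Mbl2* below it. F24 of *Cfb* is 0.398 with all samples and 0.877 without the 3. F24 tends to be higher over fewer samples, also without a rhythm.

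Complement recognition was mixed. Of 7 expressed genes of the classical and lectin pathways, *C2*, *C4b* and *Mbl1* were higher at ZT2. C2 and C4 form the C3 convertase of these pathways, and *Mbl1* and *Mbl2* encode the mannose-binding lectins. *C2* mRNA was at 187 and 176 rpbp at ZT2 and from 82.1 to 143 rpbp (median 105) in the 10 others. *C4b* mRNA was at 767 and 788 rpbp at ZT2, 747 rpbp at ZT22 of series 2 and from 399 to 582 rpbp (median 491) in the 9 others. The ZT2 samples were the highest of the 12 for both, with differences of 0.77 ± 0.17 (SE, adjusted p = 0.0137) and 0.63 ± 0.14 (SE, adjusted p = 0.0134). *C2* exons overlap gene models (Gm20547 and *Zbtb12*), and reads of *C4b* may be shared with its copy *C4a*.

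The mannose-binding lectins parted. *Mbl1* mRNA was at 792 and 775 rpbp at ZT2, next 400.5 and 458 at ZT6 and 465 and 415 at ZT10, and in the dark phase 558 and 496 at ZT14, then 601 and 545 at ZT18 and finally 615 and 751 at ZT22. *Mbl2* mRNA was at 587 and 529.9 rpbp at ZT2, next 645 and 675 at ZT6 and 827 and 734 at ZT10, and in the dark phase 826 and 608 at ZT14, then 745 and 715 at ZT18 and finally 667 and 599 at ZT22. *Mbl1* was highest at ZT2 and lowest at ZT6 or ZT10, and *Mbl2* was lowest at ZT2 and, in series 1, highest at ZT10 and ZT14. The ZT2 difference was 0.59 ± 0.098 (SE, adjusted p = 0.00385) for *Mbl1* and -0.33 ± 0.11 (SE, adjusted p = 0.0634) for *Mbl2*, which missed the threshold and passed with median-of-ratios scaling (adjusted p = 0.0272) and with either ZT14 sample left out. With 12 samples *Mbl1* had F24 = 0.655 (permutation p = 0.0097, peak at ZT22.8) and *Mbl2* F24 = 0.529 (permutation p = 0.0383, peak at ZT13.1). Without the 3 samples F24 was 0.834 for *Mbl1* (permutation p = 0.0082, peak at ZT19.9) and 0.205 for *Mbl2* (permutation p = 0.498). The limma cosine beside the acute-phase level gave adjusted p = 0.0234 for *Mbl1*. The proteases *C1s*, *Masp1* and *Masp2* had ZT2 differences of 0.035 ± 0.066, 0.037 ± 0.08 and 0.018 ± 0.067 (SE), none past the threshold. *C1s* and *Masp2* exons overlap other models (Gm16567 and Gm5077, and *Tardbp*).

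C3, the protein on which the pathways meet, had the most abundant mRNA of the complement genes among the 41. *C3* was at 4111 and 4172 rpbp at ZT2, 4432 rpbp at ZT22 of series 2 and from 2267 to 4135 rpbp (median 2917) in the 9 others, where ZT18 of series 2 reached 4135 rpbp, so ZT2 overlapped the rest. Its ZT2 difference was 0.42 ± 0.17 (SE, adjusted p = 0.109). *Cfb*, factor B of the alternative pathway, was at 1824 and 1785 rpbp at ZT2, 1446 rpbp at ZT22 of series 2 and from 857 to 1276 rpbp (median 1173) in the others. The ZT2 samples were clear of the rest, with a difference of 0.68 ± 0.089 (SE, adjusted p = 0.00112). Over the 9 samples *Cfb* had F24 = 0.877 (permutation p = 0.0025, peak at ZT17.4, against ZT23.0 over all 12). Its amplitude over the 9 was 1.49, just under the limit. Without ZT2 alone *Cfb* met the limits (F24 = 0.73, permutation p = 0.0148, amplitude 1.69). *Cfb* and *C2* are neighbours (chr17:34993319-34999463 and chr17:34999549-35035397 in mm9), both overlap Gm20547, and some reads may be shared. *Cfp*, properdin, known as a product of leukocytes, was at 38.3 and 40.7 rpbp at ZT2, 36.4 rpbp at ZT22 of series 2 and from 20.5 to 31.4 rpbp (median 23.3). Its difference was 0.61 ± 0.20 (SE, adjusted p = 0.0541), and the Kupffer cell mRNAs given above summed highest in the same 3 samples. *C3* and *Cfp* passed when ZT22 of series 2 was left out (adjusted p = 0.021 and 0.0265).

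The largest ZT2 differences of the 41 genes were in the terminal components. C5 (encoded by *Hc*), C6, C8 and C9 build the pore of the membrane attack complex, and C8 is made of chains from *C8a*, *C8b* and *C8g*. *C6* mRNA was at 488 and 509.7 rpbp at ZT2, next 94.6 and 63.8 at ZT6 and 148 and 68.4 at ZT10, and in the dark phase 197 and 219 at ZT14, then 107 and 156 at ZT18 and finally 245 and 312 at ZT22. *C9* mRNA was at 2024 and 2079 rpbp at ZT2, next 449.9 and 430.2 at ZT6 and 719 and 504 at ZT10, and in the dark phase 1166 and 853 at ZT14, then 737 and 856 at ZT18 and finally 879.9 and 1542 at ZT22. For both, ZT2 was highest and ZT6 among the lowest, with ZT14 above ZT10 in each series. *C8b* mRNA was at 702 and 678 rpbp at ZT2, 459 rpbp at ZT22 of series 2 and from 114 to 325 rpbp (median 214) in the 9 others. *C8a* mRNA was at 1357 and 1317 rpbp, 1211 rpbp and from 340.1 to 905 rpbp (median 590.2), and *Hc* mRNA at 912 and 932 rpbp, 770.5 rpbp and from 301 to 548 rpbp (median 399). In all 5, the ZT2 samples and then ZT22 of series 2 were the highest 3. *C8g* was at 697 and 623 rpbp at ZT2 and from 581 to 804 rpbp (median 697) in the 10 others and overlapped throughout.

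The ZT2 differences were 1.80 ± 0.25 (SE, adjusted p = 0.00171) for *C6*, 1.61 ± 0.26 (SE, adjusted p = 0.00318) for *C8b*, 1.44 ± 0.20 (SE, adjusted p = 0.00158) for *C9*, 1.08 ± 0.22 (SE, adjusted p = 0.00933) for *C8a* and 1.07 ± 0.17 (SE, adjusted p = 0.00296) for *Hc*, against -0.062 ± 0.089 (SE, adjusted p = 0.658) for *C8g*. *C8a* and *C8b* lie next to each other (chr4:104488284-104549003 and chr4:104438922-104477153, mm9), and *C8g*, on chromosome 2, does not. With 12 samples 0 of the 6 had a rhythm, the permutation p being 0.0791 for *C6* and 0.129 for *C9*. Over the 9 samples *C9* had F24 = 0.635 (permutation p = 0.0472, adjusted p = 0.247, peak at ZT16.6) with a maximum 2.71 times the minimum. Its fitted peak over all 12 was at ZT23.6. *C8a* (permutation p = 0.0519) and *Hc* (permutation p = 0.0631) did not pass. *Hc* exons overlap Gm13449.

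**Figure D5:**
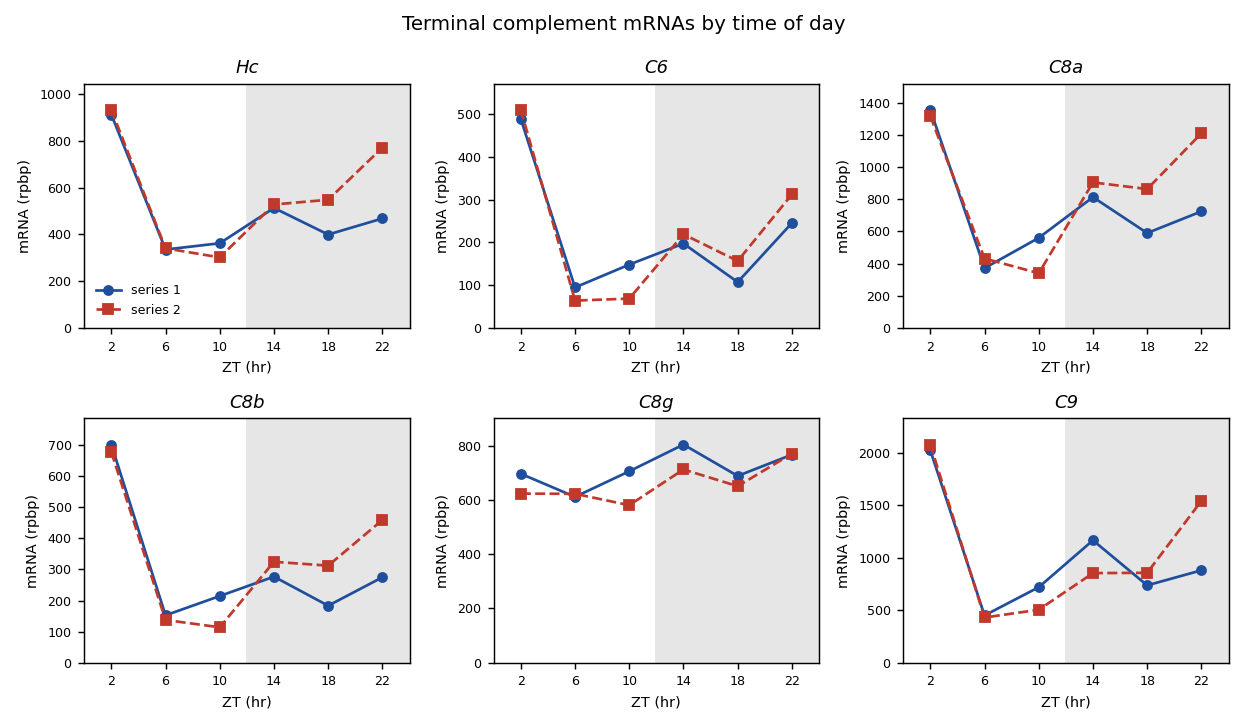
mRNA signal (rpbp) of the 6 terminal complement genes against ZT (hr), for series 1 (circles, solid lines) and series 2 (squares, dashed lines), with the dark phase shaded. *Hc*, *C6*, *C8a*, *C8b* and *C9* are highest in both ZT2 samples and next at ZT22 of series 2, and *C8g* lies between 581 and 804 rpbp throughout.

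Of the 3 complement inhibitors, factor I (*Cfi*) and C1 inhibitor (*Serping1*) were higher at ZT2. *Cfi* was at 870.3 and 899 rpbp at ZT2, 874 rpbp at ZT22 of series 2 and from 573 to 737 rpbp (median 653) in the others. *Serping1* was at 1549.7 and 1575 rpbp, 1579 rpbp and from 1003 to 1277 rpbp (median 1172). In both genes ZT22 of series 2 reached the level of ZT2, and the ZT2 differences were 0.38 ± 0.097 (SE, adjusted p = 0.0229) and 0.41 ± 0.11 (SE, adjusted p = 0.0248). *C4bp*, the C4b-binding protein, was at 972 and 1037 rpbp at ZT2 and from 729 to 1000.1 rpbp (median 834) in the 10 others, with a difference of 0.25 ± 0.095 (SE, adjusted p = 0.0887).

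Both ZT2 samples were above the 10 others in 21 of the 41 genes, against 10.4% of expressed genes, and below them in 3 of 41, against 9.58%. ZT22 of series 2 was above the 9 samples that are not ZT2 in 24 of 41, against 12.2%. The ratio of series 2 to series 1 at ZT22 was 1.71 for *Fga*, 1.75 for *C9* and 1.23 for *Cfb*, and 1.02 for *F2* and 1.00 for *C8g*. A series difference at ZT22 beyond that at the other times was also fitted in limma. It compares 1 sample with 1, takes its spread from the other times, and was aimed at a sample already seen to be high, so its counts describe that sample and are no independent support. In this fit 0 of 41 passed (0.0392% of expressed genes were higher). At an unadjusted p below 0.05, 11 of 41 were higher (26.8%, background 3.1%), with *Fga*, *Fgb* and *C9* at log2 differences of 0.77, 0.82 and 0.96, and *Klkb1* was lower (1 of 41, background 2.58%). The same fit at ZT2, also 1 sample against 1, gave 0 of 41 in either direction (background 0.00981% higher), and 0 at an unadjusted p below 0.05 (background 0.99% higher and 1.78% lower). Over all times, series 2 against series 1 gave 0 of 41 in either direction in limma, as over all expressed genes, and 0 at an unadjusted p below 0.05 (background 1.85% higher and 2.25% lower).

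Among ZT6, ZT10, ZT14, ZT18 and ZT22, 0 of 41 differed at an adjusted p below 0.05 in limma (background 6.15%), and 13 of 41 did at an unadjusted p below 0.05 (31.7%, background 26%). The 13 were the 3 fibrinogen chains, *Proc*, *Serpinf2*, *Vtn*, *Mbl1*, *Cfb*, *Hc*, *C6*, *C8a*, *C8b* and *C9*. The smallest adjusted p were 0.056 for *C6* and 0.0575 for *Fga*. Leaving out ZT22 of series 1, so that the high series 2 sample stood alone for ZT22, gave 7 (background 5.16%), and leaving out ZT22 of series 2 gave 1, *Fga* (adjusted p = 0.042, background 2.88%). With ZT2 included, 16 of 41 differed among the 6 times (background 20.4%).

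Other genes of both cascades, from a list of 38 of which 22 were expressed, showed 7 higher and 0 lower at ZT2, against 9.96% and 10.3% of all expressed genes. *Clu* (clusterin, an inhibitor of the terminal complex) was at 2989 and 2935 rpbp at ZT2 and from 1585 to 2709.7 rpbp elsewhere, with adjusted p = 0.00548. *Fcna* (ficolin A), *C1qa*, *C1qb* and *C1qc* (the chains of C1q), *C4a* and *C1rl* made up the rest, with log2 differences of 0.23 to 0.74. The C1q chains are also in the Kupffer cell list, whose summed level was higher at ZT2 as given above. Over 12 samples 2 of the 22 had a rhythm, against 19.2% of expressed genes, namely *F3* (tissue factor) and *Colec11*, a lectin of the lectin pathway (F24 = 0.662 and 0.663).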

How the data were processed

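Poly(A) RNA of 12 mouse liver samples was measured (6 times, 2 series). Per the labels and methods, the authors mapped reads to mm9 with TopHat, kept uniquely mapped sequences, and counted them over flattened UCSC exons without strand. The deposited signal is reads per base pair (coverage of exons) scaled by the authors to 10000000 sequences, and was multiplied by 4 here. It is not a count, sequencing depth was not used here, and no counting interval is given. The deposited columns of rhythm score, phase and p-value are the authors' own comparison and were not used. Columns headed ZT20 were taken as ZT22, the time in the labels.

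The tests covered genes above 8 rpbp in at least 1 sample. F24 used 10000 permutations (seed 1, smallest p 0.0001), and rhythm required p below 0.05, F24 above 0.45 and amplitude above 1.5. limma 3.58.1 in R 4.3.3 was fitted to log2(rpbp + 1) over all expressed genes, with mean-variance trend and Benjamini-Hochberg adjustment. Fold changes are on that scale. The tests were ZT2 against the mean of 5 other times, any difference among ZT6 to ZT22, series 2 against series 1, the series difference at 1 time beyond the others, and a 24 hr cosine with and without the mean log2 level of the acute-phase list. Python 3.11.15 computed F24. F24 and the limma fits of ZT2, of ZT6 to ZT22 and of series 2 against series 1 were tried on simulated data. The fits of a series difference at 1 time and of a 24 hr cosine were not. The genes and gene lists (43 genes by role, other pathway genes, acute-phase, hepatocyte, Kupffer cell, endothelial, stellate and blood cell markers) were chosen with earlier results of these data known. One gene of the other pathway list is not reported here. Values by sample are given for genes called by at least 1 test in each role and for the most abundant. Positions are from GENCODE vM1 (mm9). Promoters are from RefSeq (GRCm38.p6). Other scalings, pseudocounts, minimums, samples left out and a replicate block were tried.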

Additional observations from a re-analysis of the deposited data

How the results depend on the processing

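Of the 21 genes higher at ZT2, 8 passed with each of the 12 samples left out in turn (*Fga*, *Fgb*, *Fgg*, *Cpb2*, *Cfb*, *Hc*, *C6* and *C9*), and 12 were lost only without a ZT2 sample, which leaves 1 sample at ZT2 that is assumed to vary like the other times. The count ranged from 8 (without ZT2 of series 1; 12 without ZT2 of series 2) to 24. All 21 passed without ZT22 of series 2, and 20 with median-of-ratios scaling, *F12* being lost. The count was 17 against ZT22 and ZT6 only (*F12*, *Plg*, *Cfi* and *Serping1* lost). With no minimum, where *A2m* was tested too, it was 20 (*F11* and *Serping1* lost and another gene gained). The count lower at ZT2 was 1, *F5*; it was 0 against ZT22 and ZT6 only, 2 with median-of-ratios scaling and 2 against ZT6 to ZT18, and 0 to 2 with samples left out. It was 0 without ZT2, ZT6 or ZT18 of either series, and without ZT14 of series 2 it was *Mbl2* in place of *F5*. The count with a rhythm was 9, 0 with an adjusted permutation p, 2 without series 1, 0 without series 2 (6 samples left in each), 7 with amplitude from the means of each time (*F12* and *Mbl2* lost), 7 without ZT2, and 5 without ZT2 and ZT22 of series 2. It ranged from 0 to 7 over the fits that left out a series or ZT22 of series 2. In limma a 24 hr cosine gave 5, and 4 beside the acute-phase level. The count differing among ZT6 to ZT22 was 0, 16 over all 6 times, 1 with median-of-ratios scaling, and 1 without ZT22 (an alternative added after seeing the data). It ranged from 0 to 7 with samples left out (7 without ZT22 of series 1, 2 without ZT10 of series 1, 1 without ZT10 of series 2 and 1 without ZT22 of series 2). The cause of these shifts was not tested. The series counts stayed at 0 in the alternatives run.

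The 2 samples of a time carry series numbers. Deviations of the same series at different times correlated at r = -0.153 to 0.206 over 15 pairs of times, with 2 above 0.1, and 6 of 12 samples correlated best with their own number, so the numbers were not taken as pairing. With the replicate block 11 genes had a rhythm, 21 were higher and 1 lower at ZT2 (*Mbl2*, adjusted p = 0.0424, in place of *F5*, adjusted p = 0.0513), and 0 differed among ZT6 to ZT22. The share of all expressed genes under the block is not given, so these counts cannot be set against a background.

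Time groups of 2 samples, with a median SD of 8.1% of the mean over the 41 genes, limit what small courses can show, and ZT2 rests on 2 samples.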
